A study of Homo sapiens with 6 samples.

Results

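The homeodomain-interacting protein kinases HIPK1 to HIPK4 and the related dual-specificity kinases DYRK1A, DYRK1B, DYRK2, DYRK3 and DYRK4 were examined in KNS42 cells upon knockdown of the RNA-binding protein MSI1. The 9 kinases are 9 of the 58174 genes in the deposited expression table. The set was chosen by the fall of the HIPK1 mRNA upon MSI1 depletion in these same libraries, and the remaining 8 genes were added as its family and nearest relatives. The decrease of HIPK1 is therefore described with no test. KNS42 is a permanent line that was established from a glioblastoma (GBM) of childhood. For 3 libraries the cells received a pool of siRNAs targeting MSI1 (siMSI1), and for the other 3 a control siRNA (siC). RNA was harvested 72 h post-transfection for strand-specific sequencing of polyadenylated transcripts. The labels give the siRNA as the difference between the groups, and MSI1 is depleted and not absent in siMSI1.

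HIPK and DYRK kinases are neighbouring families of serine/threonine kinases in the CMGC group. Both activate themselves by phosphorylating a tyrosine of their own activation loop while they are being made. HIPKs are mostly nuclear, where they phosphorylate transcription factors and corepressors of the WNT, TGF-beta and DNA damage pathways. DYRKs act on NFAT factors, on cyclins and their inhibitors, and on the DREAM complex, which keeps cell cycle genes silent in resting cells. MSI1, a Musashi protein of neural stem cells and gliomas, binds UAG-containing motifs, mainly in 3′UTRs.

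The targeted mRNA was checked first. MSI1 fell from 64.2 ± 2.53 FPKM (reads scaled to gene length and library size; SD, n = 3) in siC to 11.8 ± 0.575 FPKM (SD, n = 3) in siMSI1, which is 18.5% of the control. The 6 libraries held between 13087025 and 18024080 reads on genes, and the limit that a count of 0 allows (3 reads) was between 0.0829 and 0.114 FPKM per library for a 2 kb gene. All 6 neural and glioma markers, of which MSI1 is 1, were expressed in both groups. All were lower in siMSI1 with no overlap of the groups, beside 42.8% of all tested genes without overlap. FABP7 stood at 46.0% of its siC level in siMSI1. POU3F2 was at 77.0%, VIM at 83.6%, SOX2 at 85.6% and NES at 89.3%, and these 4 did not pass the test. Of the markers of other cell types, PTPRC, PECAM1, EPCAM, ALB and MOG were below 0.1 FPKM in the mean of either group. KRT18 was at 23.1 FPKM in siC and 19.4 FPKM in siMSI1, and KRT8 at 1.06 and 1.05 FPKM, and neither passed the test. The labels do not say that the libraries of a group came from separate cultures, and p-values measure only the spread between these libraries. In bulk RNA, fewer cells that express a gene and less of its RNA per cell cannot be told apart.

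HIPK1, which phosphorylates DAXX and acts as a homeodomain cofactor, was the kinase on which the set was selected. The siC replicates 1, 2 and 3 had 24.4, 25.8 and 23.3 FPKM of its mRNA, and the siMSI1 replicates had 8.25, 8.12 and 7.90 FPKM. All 3 siMSI1 libraries were far below all 3 control libraries, and the replicates of each group were close to each other. The mean dropped from 24.5 ± 1.24 to 8.09 ± 0.175 FPKM (SD, n = 3), which is 33.0% of the control, and the log2 fold change was -1.59. These means rest on 3117 to 4333 reads per siC library and 988 to 1128 reads per siMSI1 library. In siC, HIPK1 was higher than 81.8% of the tested protein-coding genes, and in siMSI1 it was higher than 53.1% of them. A non-coding RNA on the opposite strand, HIPK1-AS1, overlaps the start of HIPK1 by 172 bases and was at 0.158 FPKM in siC and 0.105 FPKM in siMSI1, far below HIPK1 in every library.

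HIPK1 (ENSG00000163349) lies at chr1:113929324-113977869 on the plus strand of GRCh38 and has 16 exons in its GENCODE reference transcript. Its 3′UTR of 4357 bases holds 15 Musashi words. These are GUAGU and AUAGU, also with the U that follows the first letter repeated up to GUUUAGU and AUUUAGU, which were searched on the mRNA strand only and may overlap each other. A choice of 4 with 3 spellings is shown from positions near the stop codon to the far part of the 3′UTR, with the word in capitals and 10 bases on either side. All are exonic and lie in the last exon.
HIPK1 base 187 of the 3′UTR, chr1:113973689-113973713 plus strand: cugcauuguuGUAGUcuucccaaag
HIPK1 base 1642, chr1:113975144-113975168 plus strand: auaugauaauGUAGUgguuaauaga
HIPK1 base 3249, chr1:113976751-113976777 plus strand: agccuggugaAUUUAGUgagcagcugg
HIPK1 base 3868, chr1:113977370-113977395 plus strand: uauauguaauGUUAGUauuucugcuu
At 3.44 words per kb, the HIPK1 3′UTR is denser in these words than 84.1% of the 3′UTRs of tested protein-coding genes, where the median was 1.57 words per kb and 71.3% held at least 1 word. The words are rich in A and U, and G and C make up 37.4% of the HIPK1 3′UTR. This comparison was not adjusted for base composition or length. A word is a match of letters and not a measured binding site.

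HIPK2, the family member best known for its role in the response to DNA damage, had 27.8, 27.1 and 24.7 FPKM in the siC libraries, compared with 20.0, 18.8 and 19.2 FPKM in the siMSI1 libraries. The groups did not overlap, with every siMSI1 library below the lowest control. The mean fell from 26.5 ± 1.66 to 19.3 ± 0.573 FPKM (SD, n = 3), a log2 fold change of -0.45 (SE 0.070; limma, Benjamini-Hochberg over the whole table of 15069 tested genes, adjusted p = 0.0035). HIPK2 thus kept 72.8% of its control level (95% interval of the log2 fold change, -0.62 to -0.29). The call at an adjusted p of at most 0.01 was lost in 6 of 16 alternative fits. Among these were the fits without siC replicate 1 (limma adjusted p = 0.0245), siC replicate 2 (0.0157), siMSI1 replicate 1 (0.0120) and siMSI1 replicate 2 (0.0144).

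HIPK2 lies at chr7:139561570-139777998 on the minus strand, and TBXAS1 on the plus strand overlaps its start by 948 bases with a mean of 1.05 FPKM in siC and 0.860 FPKM in siMSI1. Its 3′UTR is 11357 bases long and holds 19 Musashi words, or 1.67 per kb, close to the median 3′UTR. It was also searched for matches to the seeds of miR-27b-3p and miR-143-3p, which the study examined on the CD44 mRNA. Their mature sequences are given from RefSeq (GRCh38.p14), with the seed at bases 2 to 8 in capitals.
hsa-miR-27b-3p, chr9:95085505-95085525 plus strand: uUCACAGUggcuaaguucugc
hsa-miR-143-3p, chr5:149428978-149428998 plus strand: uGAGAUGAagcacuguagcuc
On the mRNA strand, the HIPK2 3′UTR held 9 matches to the miR-143-3p seed (UCAUCUC) and 3 to the miR-27b-3p seed (ACUGUGA). It was the only one of 11259 tested 3′UTRs with at least 9 miR-143-3p matches, and 0.666% of them had at least 3 miR-27b-3p matches. These limits were set at the counts of HIPK2 itself and are not scaled by length, and its 3′UTR is longer than 99.2% of those of tested genes (median 1356 bases). At least 1 match was found in 14.3% of the 3′UTRs for miR-143-3p and in 18.3% for miR-27b-3p. A close pair of miR-143-3p matches and the first miR-27b-3p match are shown with the matching letters in capitals.
HIPK2 base 9921 of the 3′UTR, chr7:139562990-139563016 minus strand: cagggcacagUCAUCUCuagcccccaa
HIPK2 base 9939, chr7:139562972-139562998 minus strand: agcccccaaaUCAUCUCuucauccucu
HIPK2 base 2230, chr7:139570681-139570707 minus strand: ucaaggaucuACUGUGAaagguguguu
The HIPK1 3′UTR had 1 miR-143-3p match and no match to miR-27b-3p, and that of HIPK3 had neither, while those of DYRK1A and DYRK3 had 1 miR-27b-3p match each. These miRNAs were not measured in these libraries, while the study reports that both are expressed in KNS42 cells from separate small RNA sequencing.

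HIPK3, which phosphorylates FADD of the death receptor complex, moved in the opposite direction. The siC replicates had 2.96, 2.99 and 2.72 FPKM, while those of siMSI1 had 7.83, 6.49 and 5.78 FPKM. Every siMSI1 library was above every control library, while the spread among the siMSI1 libraries was wider than among the controls. The mean rose from 2.89 ± 0.152 to 6.70 ± 1.04 FPKM (SD, n = 3), a log2 fold change of 1.18 (SE 0.123; limma adjusted p = 0.00076) with a 95% interval of 0.89 to 1.46. HIPK3 passed the threshold in all 16 alternative fits, where its log2 fold change lay between 0.98 and 1.27. The counts behind it were 311 to 431 reads in siC and 661 to 918 reads in siMSI1.

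HIPK3 lies at chr11:33256672-33357023 on the plus strand, and its 3′UTR of 3455 bases holds 12 Musashi words. With 3.47 words per kb it is about as dense in them as the 3′UTR of HIPK1. Whether the words bear on the change of either mRNA was not tested. The words at bases 792 and 796 overlap. The first GUAGU and the last before a long stretch without any word are shown with the word in capitals.
HIPK3 base 207 of the 3′UTR, chr11:33353765-33353789 plus strand: aucuucuuauGUAGUaacucuagac
HIPK3 base 1415, chr11:33354973-33354997 plus strand: caaguauauuGUAGUguaaaggugg

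HIPK4, a testis-enriched relative that lacks the homeodomain-interacting region, was listed at 0, 0.0225 and 0.0283 FPKM in the siC libraries and 0, 0 and 0.0284 FPKM in siMSI1. The gene lies at chr19:40379271-40390181 on the minus strand, and no library held more than 1 read for it. It did not reach the expression filter, and no change could be seen with so few reads. PLD3 on the plus strand overlaps HIPK4 by 10202 bases, with a mean of 33.0 FPKM in siC and 37.5 FPKM in siMSI1. How reads on the shared bases were counted is not given in the sources used here.

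**Figure D1:**
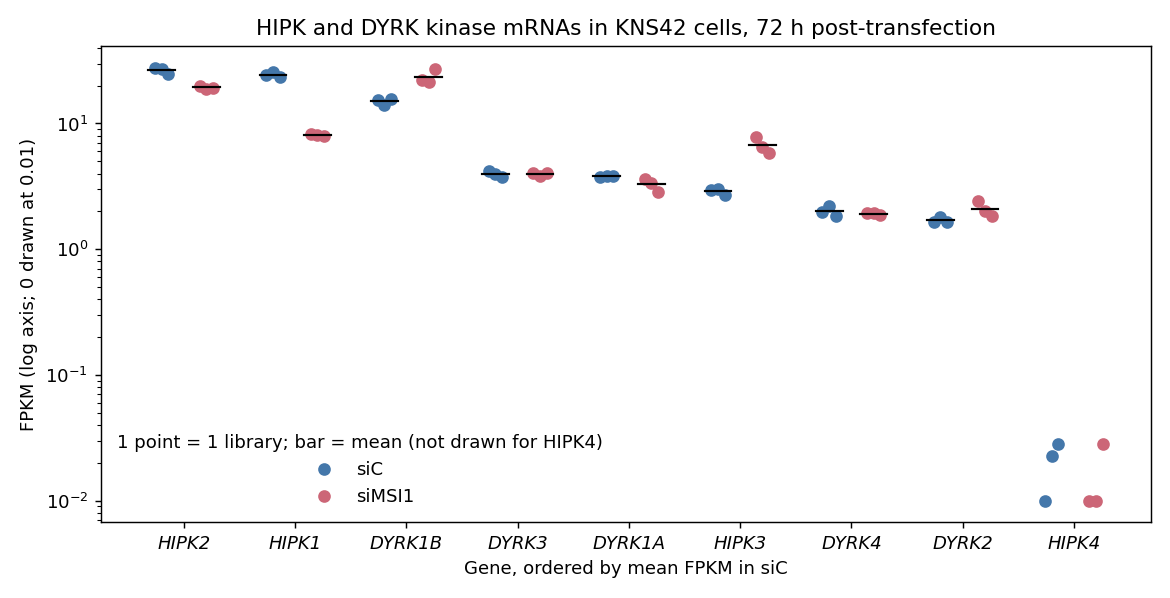
FPKM of the 9 kinases on a log axis, ordered by their mean in siC, with 1 point per library (blue, siC, n = 3; red, siMSI1, n = 3) and a bar at the mean, which is not drawn for HIPK4. HIPK1 goes from 23.3 to 25.8 FPKM in siC to 7.90 to 8.25 FPKM in siMSI1, HIPK3 from 2.72 to 2.99 FPKM to 5.78 to 7.83 FPKM, and HIPK4 sits at the foot of the axis, where 0 is drawn at 0.01.

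The make-up of the HIPK mRNA pool differed between the groups, which is given as a description because HIPK1 enters it. The summed FPKM of the 4 HIPKs was 55.2, 56.0 and 50.8 in the siC libraries and 36.0, 33.5 and 32.9 in the siMSI1 libraries. HIPK1 made up 45.4% of this sum in siC and 23.7% in siMSI1. The share of HIPK2 was 49.2% in siC and 56.7% in siMSI1, and that of HIPK3 was 5.35% and 19.6%. In the control, HIPK1 and HIPK2 were at like levels and HIPK1 was 8.49 ± 0.209 times as abundant as HIPK3 (SD, n = 3). Upon knockdown HIPK2 stood at 2.39 ± 0.0614 times HIPK1, and HIPK1 was at 1.22 ± 0.158 times HIPK3 (SD, n = 3). The sum without HIPK1 was 29.5 ± 1.79 FPKM in siC and 26.0 ± 1.52 FPKM in siMSI1 (SD, n = 3). The ranges of the groups overlapped, with a lowest siC value of 27.4 FPKM and a highest siMSI1 value of 27.8 FPKM.

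**Figure D2:**
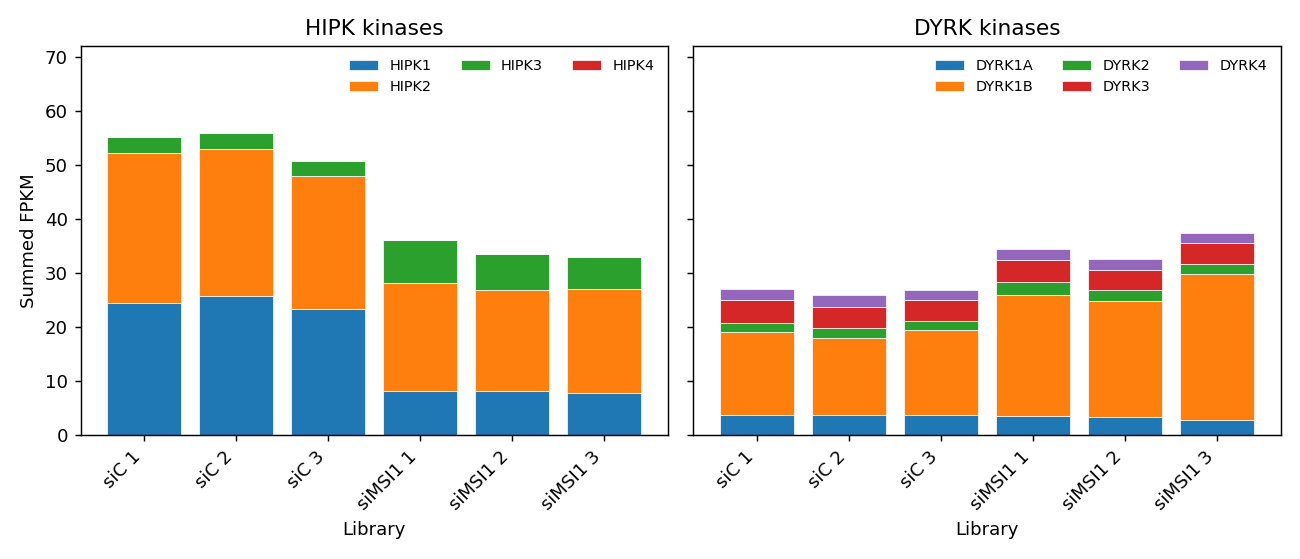
Summed FPKM of the HIPK kinases (left) and the DYRK kinases (right) in each library, stacked by gene. The HIPK sum is 50.8 to 56.0 FPKM in siC and 32.9 to 36.0 FPKM in siMSI1, while the DYRK sum is 25.9 to 27.0 FPKM in siC and 32.5 to 37.5 FPKM in siMSI1, where the DYRK1B block is taller.

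DYRK1B, also known as MIRK, holds cells in a resting state by stabilizing the cell cycle inhibitor CDKN1B and destabilizing D-type cyclins. Its level was 15.4, 14.1 and 15.7 FPKM in siC replicates 1 to 3, and rose in the siMSI1 replicates to 22.4, 21.4 and 26.9 FPKM. All siMSI1 libraries exceeded all controls, and siMSI1 replicate 3 was the highest. The mean rose from 15.1 ± 0.839 to 23.6 ± 2.95 FPKM (SD, n = 3), which is a log2 fold change of 0.63 (SE 0.098; limma adjusted p = 0.0036) with a 95% interval of 0.41 to 0.86. The call was lost in 6 of 16 alternative fits, including those without siC replicate 1 (limma adjusted p = 0.0173), siC replicate 2 (0.0142), siC replicate 3 (0.0118) and siMSI1 replicate 1 (0.0117). DYRK1B lies at chr19:39825350-39834201 on the minus strand and, with a 3′UTR of 365 bases, holds no Musashi word and 1 match to the miR-143-3p seed. A protein-coding gene of GENCODE on the same strand overlaps DYRK1B by 1475 bases and is not among the deposited genes. MIR6719 overlaps DYRK1B on that strand by 87 bases. Their effect on the DYRK1B level was not tested.

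DYRK1A, the closest relative of DYRK1B, is encoded in the Down syndrome region of chromosome 21 and phosphorylates NFAT factors and the DREAM subunit LIN52. The control libraries had 3.77, 3.84 and 3.82 FPKM and the siMSI1 libraries 3.65, 3.39 and 2.86 FPKM. The groups did not overlap, yet the siMSI1 libraries were spread much more widely than the controls, which were nearly equal. The log2 fold change of -0.21 (95% interval -0.47 to 0.05) did not pass the test (limma adjusted p = 0.21), and the interval runs from 72.4% to 103% of the control level. DYRK1A lies at chr21:37365573-37526358 on the plus strand. Its 3′UTR is the longest of the set with 13827 bases and holds the most Musashi words, 36 in all, or 2.60 per kb. The gene length behind its FPKM is 10213 bases, so part of this annotated 3′UTR lies outside that length.

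DYRK2, a scaffold and kinase of the EDVP ubiquitin ligase that also phosphorylates the proteasome, measured 1.65, 1.80 and 1.65 FPKM in siC, beside 2.42, 2.01 and 1.83 FPKM in siMSI1. The lowest siMSI1 library lay just above the highest control, and the log2 fold change of 0.27 (95% interval -0.06 to 0.59) did not pass the test (limma adjusted p = 0.20). DYRK3, which dissolves stress granules and other condensates, measured 4.18, 3.93 and 3.77 FPKM in siC, beside 4.04, 3.80 and 4.03 FPKM in siMSI1, so that the libraries of both groups were interleaved. Its 95% interval of the log2 fold change ran from -0.21 to 0.20 (limma adjusted p = 0.99). DYRK4, the least studied member, measured 1.99, 2.22 and 1.83 FPKM in siC, beside 1.92, 1.96 and 1.86 FPKM in siMSI1. Its groups overlapped too, with a 95% interval of -0.35 to 0.22 (limma adjusted p = 0.73). On the plus strand, DYRK2 lies at chr12:67648338-67665406, DYRK3 at chr1:206635536-206684419 and DYRK4 at chr12:4562208-4615302. AC005832.4, a protein-coding gene on the same strand, overlaps DYRK4 by 10359 bases and was at 0 FPKM in every library. How reads on bases shared by both genes were counted is not given in the sources used here, and their effect on the DYRK4 level was not tested. A non-coding RNA that overlaps DYRK3 on the opposite strand by 179 bases, DYRK3-AS1, had a mean of 2.097 FPKM in siC and 1.33 FPKM in siMSI1, a log2 fold change of -0.62 that did not pass the test (limma adjusted p = 0.11). The setting used for strand in counting is not given in the sources used here, so reads of the shared bases cannot be told apart.

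The DYRK sum was 26.6 ± 0.566 FPKM in siC and 34.8 ± 2.50 FPKM in siMSI1 (SD, n = 3). DYRK1B was 56.7% of it in siC and 67.5% in siMSI1. Without DYRK1B the sum was 11.5 ± 0.367 and 11.2 ± 0.732 FPKM (SD, n = 3), and the ranges of the groups overlapped.

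Among the 7 kinases other than HIPK1 that passed the filter on low values, 3 passed the threshold, beside 11.0% of all tested genes. Without siC replicate 1, siC replicate 2 or siMSI1 replicate 1, the count of 3 became 1, and HIPK3 was the 1 that remained. HIPK2 was the 1 that was lower (5.83% of all tested genes were called lower), and HIPK3 and DYRK1B were higher (5.15% of all tested genes were called higher). The groups did not overlap in 5 of the 7, beside 42.8% of all tested genes. For these 5 an exact permutation test of the single gene gives p = 0.1 (two-sided), the smallest value that 3 against 3 libraries allow. The median log2 fold change of the 7 was -0.0017, and that of all tested genes was 1.465e-05.

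**Figure D3:**
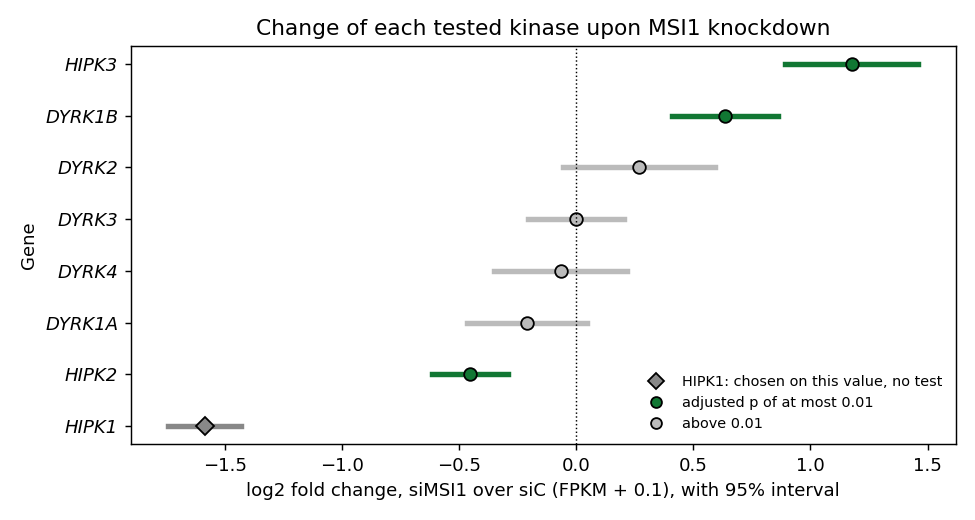
Log2 fold change of siMSI1 over siC on the log2(FPKM + 0.1) scale for the 8 kinases above the filter, with the 95% interval as a line. HIPK2 lies below 0 and DYRK1B and HIPK3 above it in green (limma adjusted p of at most 0.01), and the intervals of the other 4 DYRK kinases span 0. HIPK1 at -1.59 is drawn as a grey diamond because it was chosen on this value. Its interval is not corrected for that choice and is not a test.

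The order of the kinases by FPKM, which is scaled by gene length, changed at its top. In siC, HIPK2 and HIPK1 were the highest and their libraries overlapped, followed by DYRK1B, then DYRK3 and DYRK1A with overlapping libraries, HIPK3, DYRK4, DYRK2 and HIPK4. In siMSI1, DYRK1B came first, followed by HIPK2, HIPK1 and HIPK3, each with libraries clear of the next. DYRK3, DYRK1A, DYRK2 and DYRK4 followed, of which only DYRK2 and DYRK4 had overlapping libraries. HIPK3 had thus moved from below DYRK1A and DYRK3 to above both.

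Among the 9 annotated 3′UTRs, the densest in Musashi words were those of HIPK3 (3.47 words per kb), HIPK1 (3.44) and DYRK2 (3.29). G and C make up 31.1%, 37.4% and 34.9% of these 3′UTRs in turn, and the densities were not adjusted for base composition. HIPK1 was lower and HIPK3 higher in siMSI1, while DYRK2 did not pass the test. Whether the words bear on these levels was not tested. HIPK4 had 1 word in 316 bases, DYRK3 had 13 words in 6193 bases, and DYRK4 had no word in 122 bases. This covers 9 genes and is a description of the annotated reference transcripts, since the 3′UTR ends used in KNS42 were not measured here. For DYRK1A and DYRK3 the annotated 3′UTR is longer than the gene length behind the FPKM (10213 and 4218 bases).

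**Figure D4:**
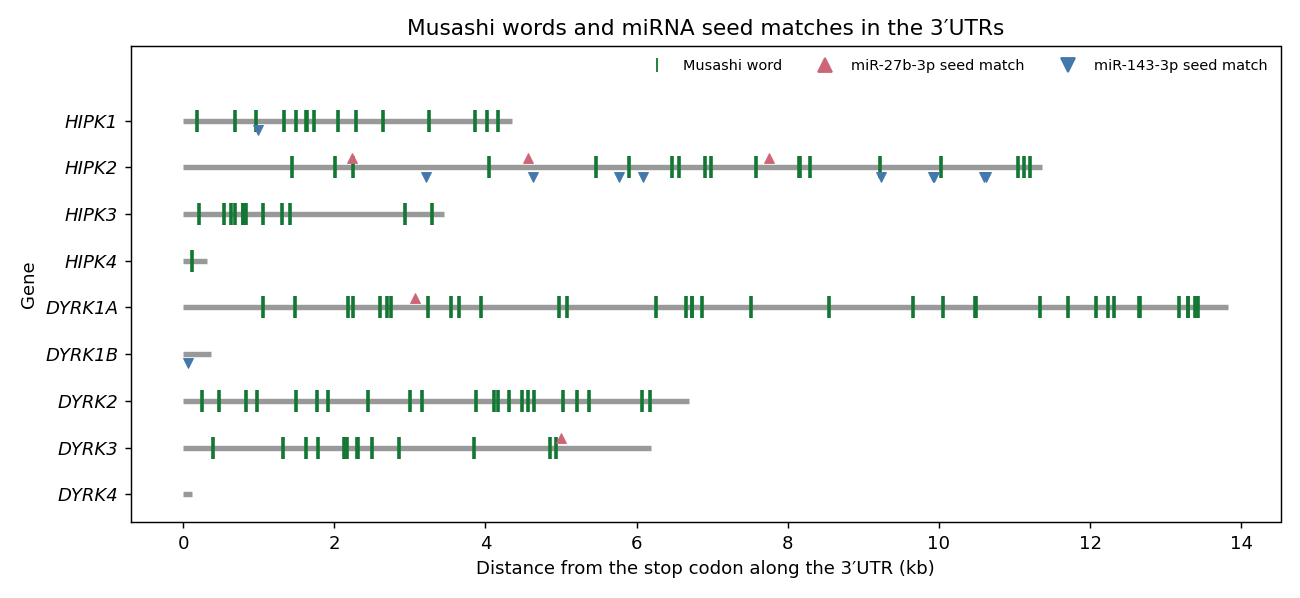
Positions of Musashi words (green ticks), miR-27b-3p seed matches (red triangles) and miR-143-3p seed matches (blue triangles) along the annotated 3′UTRs of the 9 kinases, as distance from the stop codon in kb. HIPK1 and HIPK3 carry 15 and 12 words in 3′UTRs of 4357 and 3455 bases, and 9 blue triangles fall on HIPK2.

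The genes whose pattern was most like that of HIPK1 were taken by Pearson's r of log2(FPKM + 0.1) over the 6 libraries among 13039 genes with a mean of at least 1 FPKM. Among the 5 highest were SERTAD4 (r = 0.9989), UBE2G2 (0.9989), FOPNL (0.9987) and TRIM9 (0.9986). In siMSI1 they were at 49.8%, 53.0%, 44.0% and 50.0% of their siC means, so these 4 kept more of their mRNA than HIPK1 did. The 6 points form 2 treatment groups of 3, and 795 genes had an r above 0.95, so r is given as a description with no p. HIPK2 had an r of 0.977, HIPK3 of -0.966 and DYRK1B of -0.955 with HIPK1.

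Genes that work with these kinases, and other kinases of the CMGC group, were examined as 4 lists. Of 27 substrates and regulators of the HIPKs, 26 were tested, 2 fell, 1 rose and 23 did not pass the test, with a median log2 fold change of -0.03. The 3 called genes are 11.5% of the list, near the 11.0% of all tested genes. MAP3K7, the kinase TAK1 that acts upstream of HIPK2, fell from 14.1 ± 1.61 to 8.89 ± 0.993 FPKM (SD, n = 3; log2 fold change -0.66, limma adjusted p = 0.0055). TLE1, a Groucho corepressor that HIPK2 phosphorylates, fell from 12.2 ± 0.371 to 7.80 ± 0.593 FPKM (SD, n = 3; -0.65, limma adjusted p = 0.0013). TP53INP1, a stress-induced nuclear protein that binds HIPK2, rose from 8.003 ± 0.505 to 12.8 ± 1.11 FPKM (SD, n = 3; 0.66, limma adjusted p = 0.0020). These 3 genes were named by a rule that asks for groups without overlap. In the whole list the groups did not overlap in 13 of the 26 tested genes, beside 42.8% of all tested genes. MDM2, a ubiquitin ligase that HIPK2 phosphorylates, had a log2 fold change of 0.28 and did not pass (limma adjusted p = 0.15). The number of HIPK partners past the threshold fell from 3 to 0 without siC replicate 1 and to 1 without siMSI1 replicate 1.

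Of 25 DYRK partners, 19 were tested, 1 fell, 1 rose and 17 did not pass, with a median of 0.18. The called share of 10.5% is near the 11.0% of all tested genes. DCAF7, the WD40 adaptor that binds DYRK1A, DYRK1B and HIPK2, fell from 36.0 ± 1.52 to 25.4 ± 2.24 FPKM (SD, n = 3; -0.51, limma adjusted p = 0.0039). CDKN1B, the cell cycle inhibitor that DYRK1B stabilizes, rose from 23.6 ± 0.736 to 33.9 ± 3.03 FPKM (SD, n = 3; 0.52, limma adjusted p = 0.0037). RCAN1, an inhibitor of calcineurin and DYRK1A substrate, had a log2 fold change of 0.42 and did not pass (limma adjusted p = 0.013). The count of 2 became 0 when any 1 of siC replicates 1, 2 and 3 or siMSI1 replicates 1 and 2 was left out, and 4 without siMSI1 replicate 3.

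All 12 genes of the DREAM complex list were tested, of which 2 fell, 1 rose and 9 did not pass, with a median of -0.26. The list includes MYBL2, which is not a subunit of DREAM itself and did not pass (limma adjusted p = 0.086). The 3 called genes are 25% of the list, beside 11.0% of all tested genes (5.83% lower and 5.15% higher). TFDP1, the dimer partner of E2F factors, fell from 52.6 ± 1.60 to 40.4 ± 0.457 FPKM (SD, n = 3; -0.38, limma adjusted p = 0.0035), and RBBP4, a histone-binding subunit, from 18.0 ± 0.903 to 13.0 ± 0.802 FPKM (SD, n = 3; -0.47, limma adjusted p = 0.0041). E2F5, a repressor E2F, rose from 6.15 ± 0.818 to 8.90 ± 0.188 FPKM (SD, n = 3; 0.54, limma adjusted p = 0.0096). LIN52, the subunit phosphorylated by DYRK1A, had a log2 fold change of -0.43 and did not pass (limma adjusted p = 0.016). The count of 3 became 0 without siC replicate 1, 2 or 3 or without siMSI1 replicate 1, and 1 without siMSI1 replicate 2.

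Of 22 other CMGC kinases, 18 were tested and 17 did not pass the test, with a median log2 fold change of -0.05. The called share was 5.56%, beside 11.0% of all tested genes.

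**Figure D5:**
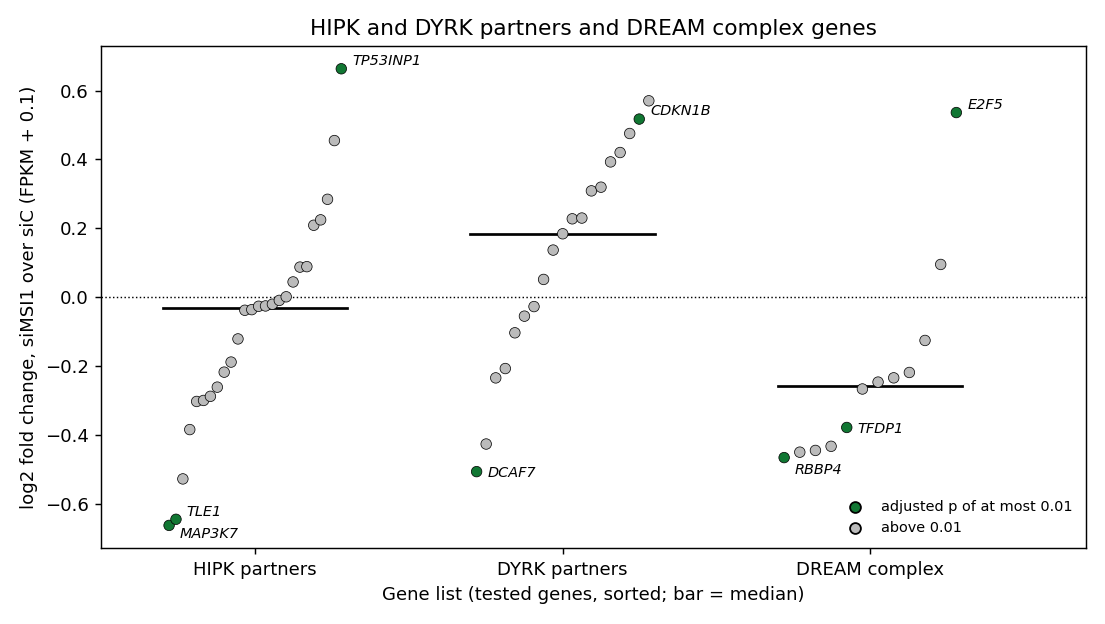
Log2 fold change of siMSI1 over siC for each tested gene of the HIPK partners, the DYRK partners and the DREAM complex, sorted within a list, with a bar at the median. Green points passed the threshold (limma adjusted p of at most 0.01) and are named. The medians are -0.03, 0.18 and -0.26, and most points of every list are grey.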

How the data were processed

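KNS42 cells treated with siC or siMSI1 (n = 3 each) were sequenced as strand-specific libraries. The authors trimmed reads with cutadapt (1.14), aligned them to GRCh38 with HISAT2 (2.1.0), counted them per Ensembl gene with featureCounts (1.5.3) and deposited FPKM values. Their fold change, p-value and FDR columns were not used. The strand setting is not given in the sources used here. FPKM times gene length gave whole reads for 100% of values in each library (within 0.01).

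Groups and replicate numbers follow the labels. The FPKM were analysed as log2(FPKM + 0.1) with limma (3.58.1 in R 4.3.3; moderation with trend and robust) over 15069 genes with a mean of at least 0.5 FPKM, with no block, Benjamini-Hochberg adjustment and a threshold of 0.01 (two-sided). A fold change on this scale understates that of low genes. The test was checked on simulated reads drawn with the same dispersion for every gene. That check does not cover differences between single libraries, such as those seen when 1 library is left out. Intervals of the fold change are at 95% from limma. Of the table's genes, 57392 were found in GENCODE 44 (GRCh38), which gave coordinates, overlapping genes and 3′UTRs. Named genes were all 9 kinases, from each list up to 4 falling and 4 rising genes past the threshold without overlap of the groups, the 5 genes most like HIPK1, genes overlapping it, and MSI1. Some genes that this rule names are not reported here. Members and lists were chosen with earlier results of these data known. Other genes given beside these, with values that did not pass, were picked after their values were seen. Alternatives were added values of 0.01 and 1, filters, scalings, plain moderation, a replicate block, limma voom on recovered reads, and leaving out each library.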

Additional observations from a re-analysis of the deposited data

How the results depend on the processing

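There were 16 alternative fits with limma, of which 6 each left out 1 library. Each changed 1 choice, except voom with replicate block, which changed 2. HIPK1 had log2 fold changes of -1.62 to -1.49, and HIPK3 passed an adjusted p of 0.01 in all 16. HIPK2 and DYRK1B kept their direction in all 16 and their calls in 10 each, and beside the left-out libraries their calls were lost with no filter (adjusted p = 0.0114 and 0.0143) and with plain moderation (0.0144 and 0.0154). The cause was not tested. DYRK1A and DYRK2 kept their direction and stayed above the threshold in all 16. DYRK3, near no change, turned positive with median centring (0.011), quantile normalization (0.0086), voom (0.0022) and voom with replicate block (0.00061), and spanned -0.0352 to 0.0364 when 1 library was left out, while DYRK4 then spanned -0.13 to 0.0024. No scaling moved the median of all genes by over 0.1.

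Counts past the threshold moved more. With no filter there were 1 kinase other than HIPK1, 0 DYRK partners, 1 DREAM gene and 792 of all genes, and with plain moderation 1, 0, 0 and 847. With voom there were 5 HIPK partners, 6 DYRK partners, 2 other CMGC kinases and 2690 of all genes. An adjusted p of 0.05 gave 7 HIPK partners, 6 DYRK partners, 6 DREAM genes, 3 other CMGC kinases and 3787 of all genes. Leaving out 1 library gave 1 to 3 kinases, 0 to 3 HIPK partners, 0 to 4 DYRK partners, 0 to 2 DREAM genes and 517 to 1603 of all genes, lowest without siC replicate 1. The cause was not tested.

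Same-numbered libraries of both groups deviated together by r of -0.066, 0.078 and 0.083, so the numbers were not taken to pair them. The numbers are those of the labels, and the study's own table uses other numbers for them. The correlations and the block use the labels' numbers. With the replicate block, the adjusted p was 0.0032 for HIPK2, 0.0012 for HIPK3 and 0.0020 for DYRK1B (all still called), and 5 DYRK partners and 2250 of all genes passed. Voom with replicate block gave 10 HIPK partners, 10 DYRK partners, 7 DREAM genes, 5 other CMGC kinases and 4870 of all genes. HIPK4 had at most 1 read in a library, and why was not tested.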
